A study of Mus musculus with 6 samples.

Results

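Transcripts of the Notch pathway were examined in bulk RNA-seq libraries of PDVC57, an established squamous carcinoma line derived from mouse keratinocytes. The genes were 10 named members, listed by symbol and chosen with earlier results of these data known. They were the receptors Notch1, Notch2 and Notch3, the ligands Jag1, Jag2, Dll1 and Dll4, and the targets Hes1, Hey1 and Heyl. All 10 were found among the 55385 mouse gene IDs of the count table, and all 10 passed the filter on low counts. The libraries formed 2 groups of 3, labelled Sox2 KO (knockout, where the gene is disrupted) and Sox2 overexpression (OE, where additional Sox2 is supplied). Per the series' design text, the tumour cells were low or high in Sox2, came from grafted tumours, and were compared to learn what Sox2 turns on that could act on neutrophils. How Sox2 was disrupted or supplied, whether a group is a single clone, and how host cells were removed from the grafts are not given in the sources used here. Nor do the labels say whether the replicates came from separate grafts, so the p-values measure the spread between these libraries, which may be technical.

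Notch receptors are membrane proteins that are activated by ligands on a neighbouring cell. Binding lets ADAM proteases and then the gamma-secretase complex cut the receptor, and the freed intracellular part joins RBPJ and Mastermind proteins on DNA to switch on genes such as those of the Hes and Hey repressors. In the epidermis Notch signalling drives basal keratinocytes towards differentiation, and in blood vessels it directs endothelial sprouting through Dll4 and the coating of vessels by mural cells through Notch3.

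Library totals lay between 31247976 and 38543221 counts, and Sox2 itself had 25 to 49 counts in the knockout libraries and 2566 to 4095 in the overexpression libraries, which separated the groups as labelled. Epithelial and stromal markers also differed between the groups. The 10 fibroblast markers summed to 55921 to 83658 CPM (counts relative to the library's size, scaled by TMM, edgeR's trimmed mean normalization) with knockout and 255 to 403 CPM with overexpression. The 15 epithelial markers summed to 5144 to 8743 CPM with knockout and 14112 to 19706 CPM with overexpression. All 15 were above 0 in every library. In the edgeR test given below, 10 were called higher and 5 were not called, where 13.6% of tested genes were called higher. The ratio of mean CPM ran from 1.11 (Itga6) to 10.7 (Krt6a), so the list did not shift evenly. In bulk samples, fewer cells of a type and less RNA per cell cannot be told apart. Each fold change was also computed with the libraries scaled to the epithelial markers, which took the median over all tested genes from -0.02 to -1.26 (log2).

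On the TMM scale Notch1, Notch3, Jag2 and Hes1 rose with Sox2 overexpression, by 1.72 to 2.09 times in mean CPM, while their direction turned (with no call) when libraries were scaled to the epithelial markers. Dll4 and Heyl fell on either scale. In the edgeR quasi-likelihood test with Benjamini-Hochberg adjustment, 6 of the 10 members had an adjusted p under 0.05, where 31.6% of the 18504 tested genes did. The 4 that rose compare with 13.6% of tested genes called higher, and the 2 that fell with 18.0% called lower. The groups were fully separated for 7 members, against 50.9% of tested genes: overexpression was above for 4 (24.4% of tested genes) and below for 3 (26.5%). The median log2 fold change was 0.01 over the members and -0.02 over all tested genes on the TMM scale. When libraries were scaled to the epithelial markers, 0 members were higher and 6 were lower past the threshold. All 10 log2 fold changes were then below 0. On that scale 311 of the 18504 tested genes were higher and 12901 lower, and each lower call on it is read beside that count. Leaving out knockout replicate 2, knockout replicate 3, overexpression replicate 1 or overexpression replicate 3 left 1 lower member, Heyl.

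**Figure D1:**
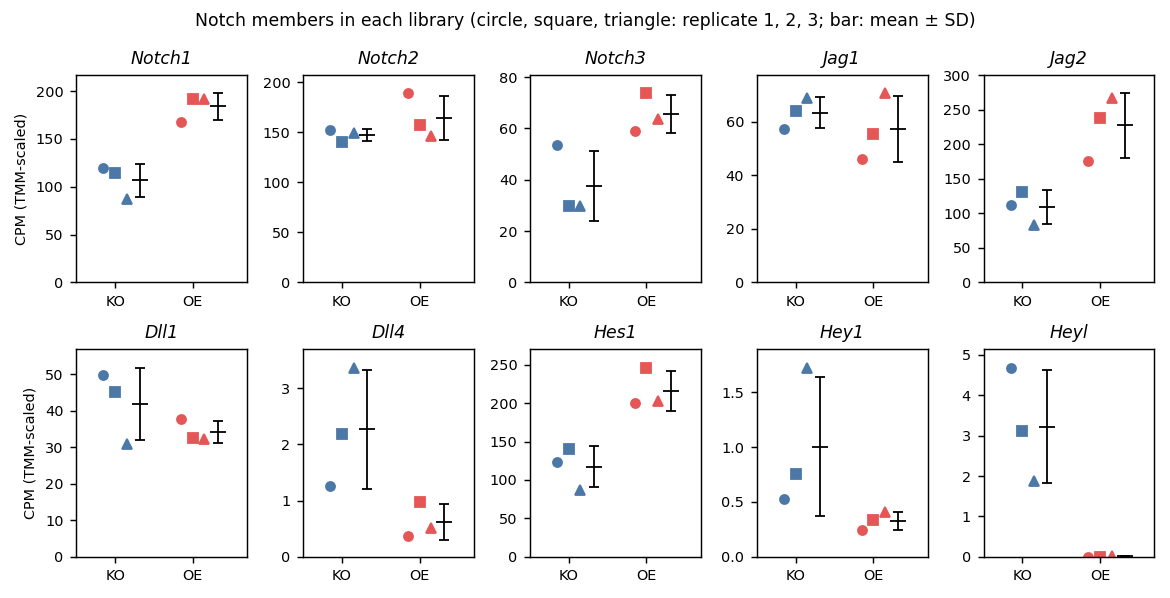
TMM-scaled CPM of each member (vertical axes, starting at 0) in 3 Sox2 KO (blue) and 3 Sox2 OE (red) libraries, with replicates 1, 2 and 3 as circle, square and triangle and black bars for the mean ± SD. The red points lie above all blue points for Notch1, Notch3, Jag2 and Hes1 on this scale (but not when scaled to the epithelial markers, where these 4 fold changes turn), and below them for Dll4, Hey1 and Heyl.

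The promoters of Notch1 and Jag2, the receptor and the ligand that rose with the smallest p-values, are shown with those of Lfng and Hes5, pathway genes with matches to the RBPJ motif of which 1 rose and 1 was not detected. The windows are RefSeq's on GRCm38.p6, 250 bases before to 50 after a start, written 5′ to 3′ on the gene's strand. They are Notch1 chr2:26503773-26504072 (minus strand), Jag2 chr12:112929446-112929745 (minus), Lfng chr5:140607091-140607390 (plus) and Hes5 chr4:154960673-154960972 (plus). Those of Notch1 and Jag2 are at RefSeq's start and lie inside the GENCODE span of the gene. Capitals mark TGGGAA, the core of the RBPJ site, or its complement TTCCCA.
Notch1: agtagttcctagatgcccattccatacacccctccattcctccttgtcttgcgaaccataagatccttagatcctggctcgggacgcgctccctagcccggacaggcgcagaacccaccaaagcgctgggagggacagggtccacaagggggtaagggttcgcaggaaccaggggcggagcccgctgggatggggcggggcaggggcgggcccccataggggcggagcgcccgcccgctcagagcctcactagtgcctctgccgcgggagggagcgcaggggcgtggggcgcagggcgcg
Jag2: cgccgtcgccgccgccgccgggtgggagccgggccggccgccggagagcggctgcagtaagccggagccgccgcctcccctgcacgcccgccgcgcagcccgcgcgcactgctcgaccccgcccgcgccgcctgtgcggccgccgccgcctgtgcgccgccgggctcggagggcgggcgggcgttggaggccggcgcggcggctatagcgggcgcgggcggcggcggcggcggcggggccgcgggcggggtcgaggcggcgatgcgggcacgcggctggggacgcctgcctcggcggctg
Lfng: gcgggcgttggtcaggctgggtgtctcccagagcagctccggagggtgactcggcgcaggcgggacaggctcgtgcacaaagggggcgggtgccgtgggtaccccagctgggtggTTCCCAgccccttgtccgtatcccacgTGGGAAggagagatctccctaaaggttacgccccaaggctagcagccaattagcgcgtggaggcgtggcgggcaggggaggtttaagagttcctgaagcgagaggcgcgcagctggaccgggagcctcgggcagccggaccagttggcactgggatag
Hes5: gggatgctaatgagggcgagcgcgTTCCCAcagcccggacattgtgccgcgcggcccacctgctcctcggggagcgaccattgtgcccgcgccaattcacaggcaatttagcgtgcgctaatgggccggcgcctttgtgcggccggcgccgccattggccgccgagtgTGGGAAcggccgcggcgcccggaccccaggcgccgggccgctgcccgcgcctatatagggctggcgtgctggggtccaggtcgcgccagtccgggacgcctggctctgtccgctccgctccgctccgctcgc
Windows were given for 7 of the 10 members (8 windows, as Dll1 has 2), and Hes1, Hey1 and Heyl had none. The Dll1 window at chr17:15375774-15376073 also lies inside the GENCODE span. A window inside that span does not cover the bases before the GENCODE start. The search covered TGGGAA and the longer GTGGGAA, which contains it, on both strands, and found neither in the 8 windows. TGGGAA occurs in 25.6% and GTGGGAA in 6.38% of all 32851 windows. The Lfng window holds TGGGAA at 135 and 108 bases before the start, on opposite strands, and that of Hes5 holds GTGGGAA on opposite strands. Among the 48 pathway genes with a window, 14 hold TGGGAA and 7 GTGGGAA, where 28.3% and 7.25% of all genes with a window do. A further motif, AACAAT, a core of the sites of SOX proteins, was added after the data were seen and was found in none of the 8 windows of members and in those of 6 of the 48 pathway genes (Aph1a, Maml1, Maml2, Tle4, Dtx3l and Nrarp), where 12.2% of all genes with a window hold it. A match is a string of letters in a short window, and its absence says nothing about binding elsewhere.

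Among the receptors, Notch1 is the main receptor of epidermal keratinocytes and a tumour suppressor in skin. It lies on chromosome 2 (26457903 to 26516663, minus strand, GRCm38). Its levels were 119, 114 and 87.1 CPM in knockout replicates 1, 2 and 3 and 168, 192 and 192 CPM in overexpression replicates 1, 2 and 3. Every overexpression library was above every knockout library. The log2 fold change was 0.78 (SE 0.17; adjusted p = 0.007, edgeR), and it was between 0.66 and 0.88 with any 1 library left out, always past the threshold. With libraries scaled to the epithelial markers it was -0.43 (adjusted p = 0.231, over a range of 0.000197 to 0.231 across the settings tried).

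Notch3 is the receptor best known from mural cells of arteries, and is also present in suprabasal epithelium. The gene is on chromosome 17 (32120820 to 32166852, minus strand). It had 53.5, 29.9 and 29.7 CPM in the knockout libraries and 59.1, 73.6 and 63.8 CPM in the overexpression libraries. Knockout replicate 1 stood well above the other knockout libraries and close to overexpression replicate 1, although the groups did not overlap. The log2 fold change of 0.80 (SE 0.24) passed the threshold (adjusted p = 0.0358, edgeR). This call was lost without knockout replicate 2 or 3 (adjusted p = 0.127 and 0.114) and without overexpression replicate 2 or 3 (0.100 and 0.0714), over a range of 0.00274 to 0.263, and the direction turned under the epithelial scaling (log2 fold change -0.42).

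Notch2, a receptor shared by many epithelia, is on chromosome 3 (98013527 to 98150361, plus strand). It measured 152, 140 and 149 CPM with knockout and 189, 157 and 146 CPM with overexpression. The groups overlapped, and the log2 fold change of 0.16 (SE 0.15) missed the threshold (edgeR adjusted p = 0.461). Scaled to the epithelial markers, Notch2 was lower with overexpression (log2 fold change -1.08, adjusted p = 0.00667, range 0.00667 to 0.789).

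Levels of different genes were compared only after division by exon length, as CPM per kb. With knockout the order of the receptors was Notch2 (13.6 ± 0.57 CPM per kb, SD, n = 3), Notch1 (7.51 ± 1.21) and Notch3 (4.66 ± 1.69). With overexpression Notch2 stood at 15.2 ± 2.05 and Notch1 at 12.9 ± 0.958 CPM per kb (SD, n = 3 each), so that these neighbours came within their spread of each other, and Notch3 followed at 8.10 ± 0.917. Shares within a library do not depend on how libraries are scaled. Notch2 made up 48.5%, 52.6% and 58.6% of the length-corrected receptor counts in the knockout libraries and 47.8%, 39.2% and 38.8% in the overexpression libraries. The share of Notch1 was 25.9% to 32.5% with knockout and 32.3% to 38.6% with overexpression, which overlapped. Within a library, the log2 ratio of Notch1 to Notch2 was -0.88 ± 0.26 with knockout and -0.23 ± 0.30 with overexpression (SD, n = 3 each), and its values did not overlap between the groups. These shares and ratios were chosen after the values were seen and are descriptions without a test.

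**Figure D2:**
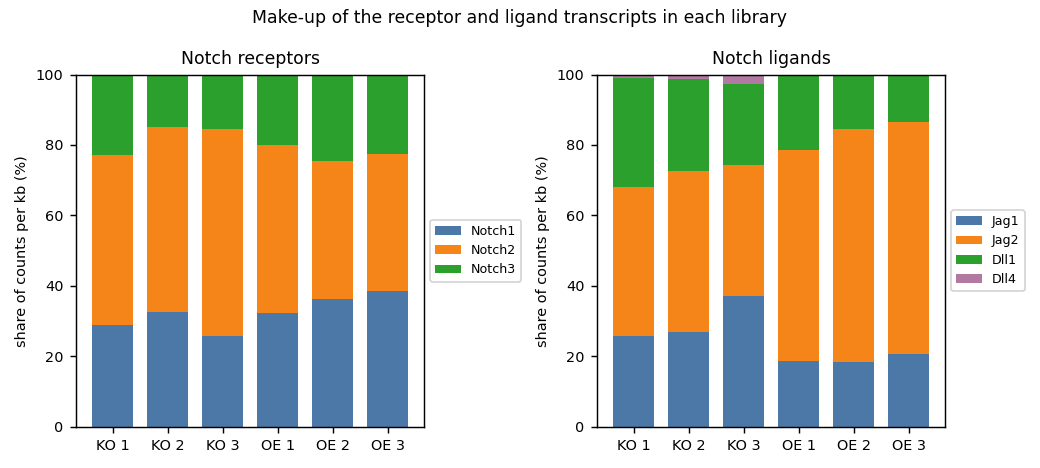
Percentage of the length-corrected counts (counts per kb of exon) that each receptor (left) or ligand (right) contributed in each of the 6 libraries, with bars stacked to 100%. The orange Jag2 segment takes 37.3% to 45.9% of the ligand counts in the Sox2 KO libraries and 59.9% to 66.2% in the Sox2 OE libraries.

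Among the ligands, Jag2, a Jagged ligand of basal epithelial cells, was the member that passed the threshold upward on the TMM scale, though not on the epithelial one. It lies on chromosome 12 (112907819 to 112929776, minus strand). It had 113, 131 and 82.8 CPM in the knockout libraries and 176, 238 and 267 CPM in the overexpression libraries. The lowest overexpression library was above the highest knockout library. The log2 fold change was 1.06 (SE 0.22; adjusted p = 0.00659, edgeR), 0.91 to 1.24 with any 1 library left out. Under the epithelial scaling it was -0.15 (adjusted p = 0.677, range 6.18e-05 to 0.677).

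Jag1, the other Jagged ligand, is on chromosome 2 (137081456 to 137116644, minus strand). Its levels were 57.2, 64.1 and 68.8 CPM with knockout and 46.1, 55.5 and 70.5 CPM with overexpression. The groups overlapped and the log2 fold change of -0.14 (SE 0.18) missed the threshold (edgeR adjusted p = 0.580). Its sign turned without overexpression replicate 1, to 0.013. Within a library, the log2 ratio of Jag2 to Jag1 per kb was 0.72, 0.77 and 0.01 with knockout and 1.68, 1.84 and 1.66 with overexpression. The ratio was thus higher in each overexpression library whatever the scaling, and knockout replicate 3 was the library where the Jagged ligands were nearly equal.

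Dll1, a Delta-like ligand found in clusters of basal keratinocytes, is on chromosome 17 (15367354 to 15376872, minus strand). It had 49.8, 45.0 and 30.7 CPM with knockout and 37.7, 32.4 and 32.3 CPM with overexpression, and the groups overlapped. The log2 fold change was -0.29 (SE 0.20; adjusted p = 0.290, edgeR). Under the epithelial scaling Jag1 and Dll1 were both lower past the threshold, with log2 fold changes of -1.44 (adjusted p = 0.000605, range 0.000605 to 0.965) and -1.46 (adjusted p = 0.000488, range 0.000488 to 0.676).

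Dll4, the Delta-like ligand of sprouting endothelium, was rare in these libraries. The gene is on chromosome 2 (119325784 to 119335962, plus strand) and had 43, 66 and 123 counts with knockout and 12, 29 and 20 counts with overexpression. These were 1.26, 2.18 and 3.37 CPM against 0.366, 0.980 and 0.505 CPM, with no overlap between the groups. The log2 fold change of -1.88 (SE 0.51) passed the threshold (adjusted p = 0.0231, edgeR). It did not without knockout replicate 2 or 3 (adjusted p = 0.0561 and 0.0619) or overexpression replicate 1 or 3 (0.0695 and 0.0815), over a range of 2.94e-05 to 0.0815.

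Per kb, the ligands with knockout ran from Jag2 (15.6 ± 3.50 CPM per kb, SD, n = 3) through Jag1 (10.9 ± 1.01) and Dll1 (9.91 ± 2.35) to Dll4 (0.589 ± 0.274). With overexpression Jag2 stood at 32.6 ± 6.66 CPM per kb, Jag1 at 9.85 ± 2.12, Dll1 at 8.08 ± 0.733 and Dll4 at 0.160 ± 0.0835 (SD, n = 3 each). In each group Jag1 and Dll1 lay within their spread of each other. Jag2 held 41.9% ± 4.29 of the length-corrected ligand counts with knockout and 64.0% ± 3.53 with overexpression (SD, n = 3 each), and the shares of Jag1, Dll1 and Dll4 were each lower in every overexpression library.

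Of the targets, Hes1, a basic helix-loop-helix repressor and the target most widely used as a readout of Notch, was by far the most abundant. It lies on chromosome 16 (30064384 to 30067796, plus strand) and measured 57.6 ± 13.3 CPM per kb with knockout and 106 ± 12.7 CPM per kb with overexpression (SD, n = 3 each), the highest level per length of the 10 members in each group. Its levels were 124, 140 and 87.5 CPM in the knockout libraries and 200, 246 and 203 CPM in the overexpression libraries. The groups did not overlap, and the log2 fold change was 0.88 (SE 0.20; adjusted p = 0.0101, edgeR). It stayed past the threshold with any 1 library left out, at 0.72 to 1.04, and was -0.30 under the epithelial scaling (adjusted p = 0.392, range 0.000475 to 0.392). Within a library, the log2 ratio of Hes1 to Notch1 was 2.92 ± 0.16 with knockout and 3.03 ± 0.14 with overexpression (SD, n = 3 each), and its values overlapped.

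Heyl, a Hey-family repressor known from vascular smooth muscle, fell to the detection limit. The gene is on chromosome 4 (123233556 to 123249875, plus strand). It had 160, 94 and 69 counts in the knockout libraries, or 4.68, 3.10 and 1.89 CPM, and 0, 0 and 1 count in the overexpression libraries. With 323 counts against 1, the knockout level was 326 times that of overexpression, with a 95% counting interval of 58.1 to 12927 (exact, for counting error only). The adjusted p was 0.0001 in the edgeR test and lay between 4.42e-12 and 0.00241 across the settings tried. The 1 count was in overexpression replicate 3, without which the overexpression mean went from 0.00842 to 0 CPM.

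Hey1, another repressor of the family with a known part in endothelium, is on chromosome 3 (8663359 to 8667256, minus strand). It had 18, 23 and 63 counts with knockout and 8, 10 and 16 with overexpression. In CPM these were 0.527, 0.760 and 1.72 against 0.244, 0.338 and 0.404, so every overexpression library was the lower. The log2 fold change of -1.60 (SE 0.54) missed the threshold (edgeR adjusted p = 0.0534). With knockout replicate 3 left out, the group's mean was 0.643 in place of 1.00 CPM and the log2 fold change -0.94 (adjusted p = 0.190), and without knockout replicate 1 the adjusted p was 0.0325, over a range of 0.000283 to 0.190.

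**Figure D3:**
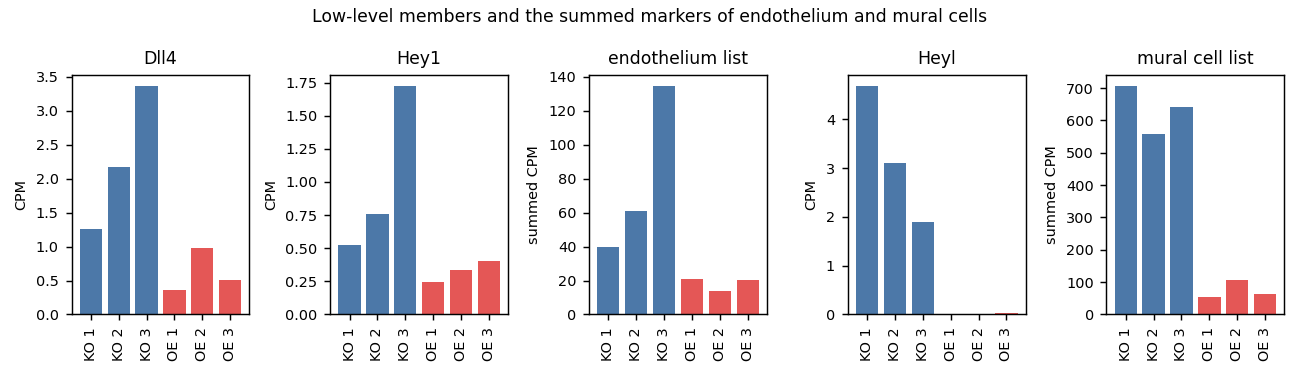
Levels in CPM of Dll4, Hey1 and Heyl and summed CPM of the 10 endothelial and 10 mural cell markers (vertical axes, starting at 0) in each Sox2 KO (blue) and Sox2 OE (red) library. Dll4, Hey1 and the endothelial sum are each highest in knockout replicate 3, Heyl and the mural sum in knockout replicate 1.

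Markers of several other cell types were lower in the overexpression libraries, as were Dll4 and Heyl. The counts of lower markers that follow are read beside the 18.0% of all tested genes called lower. The 10 fibroblast markers were all lower past the threshold. The 10 endothelial markers summed to 40.0, 60.9 and 135 CPM in knockout replicates 1, 2 and 3 and to 14.0 to 20.7 CPM with overexpression, and 8 of the 9 tested were lower past the threshold. Dll4 and Hey1 had the same order as this sum over the knockout libraries, but in overexpression Dll4 was highest in replicate 2, where the sum was lowest. Cdh5, Emcn and Cldn5 had at most 3 counts in every overexpression library, while Pecam1 had 68 to 144. Tek, the tested marker that was not called (adjusted p = 0.216, edgeR), made up 16.9, 9.32 and 15.1 CPM of the overexpression sums of 20.7, 14.0 and 20.6 CPM. The 10 mural markers summed to 707, 557 and 641 CPM with knockout and 54.0 to 106 CPM with overexpression, and 8 of the 9 tested were lower. Rgs5, a pericyte marker, had 3059, 1332 and 1695 counts with knockout and 0, 0 and 15 with overexpression. Rgs5, Heyl and Notch3 were each highest in knockout replicate 1, as was the mural sum, but Heyl was lowest in replicate 3 and the sum in replicate 2. The 10 white blood cell markers summed to 27.8 to 151 CPM with knockout, most in replicate 3. With overexpression they summed to 13.9 to 28.5 CPM, so these sums overlapped, and 5 of the 7 tested were lower. The other tested markers, Cd68 and Csf1r, had higher means with overexpression (log2 fold changes 0.49 and 0.86). Both missed the threshold (edgeR adjusted p = 0.356 and 0.103). The epithelial sum was 8491, 8743 and 5144 CPM in knockout replicates 1, 2 and 3. Notch1, Jag2 and Hes1 were also lowest in knockout replicate 3, but Notch1 was highest in replicate 1 and the sum in replicate 2. The part of these cell types in the levels and ratios of the members, and in the fall of Dll4 and Heyl, was not tested. Nor was their part in the changes of the pathway genes that follow.

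Beyond the members, 58 further genes of the pathway were read from the same fit, of which 51 were tested. Of these, 9 were higher and 10 lower with overexpression, which is 37.3% of those tested beside 31.6% of all tested genes. Their median log2 fold change was 0.11. Under the epithelial scaling 0 were higher and 40 lower, where 311 and 12901 of the 18504 tested genes were. The counts by role that follow are read beside the 13.6% of tested genes called higher and 18.0% called lower, and none is a test of a list.

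**Figure D4:**
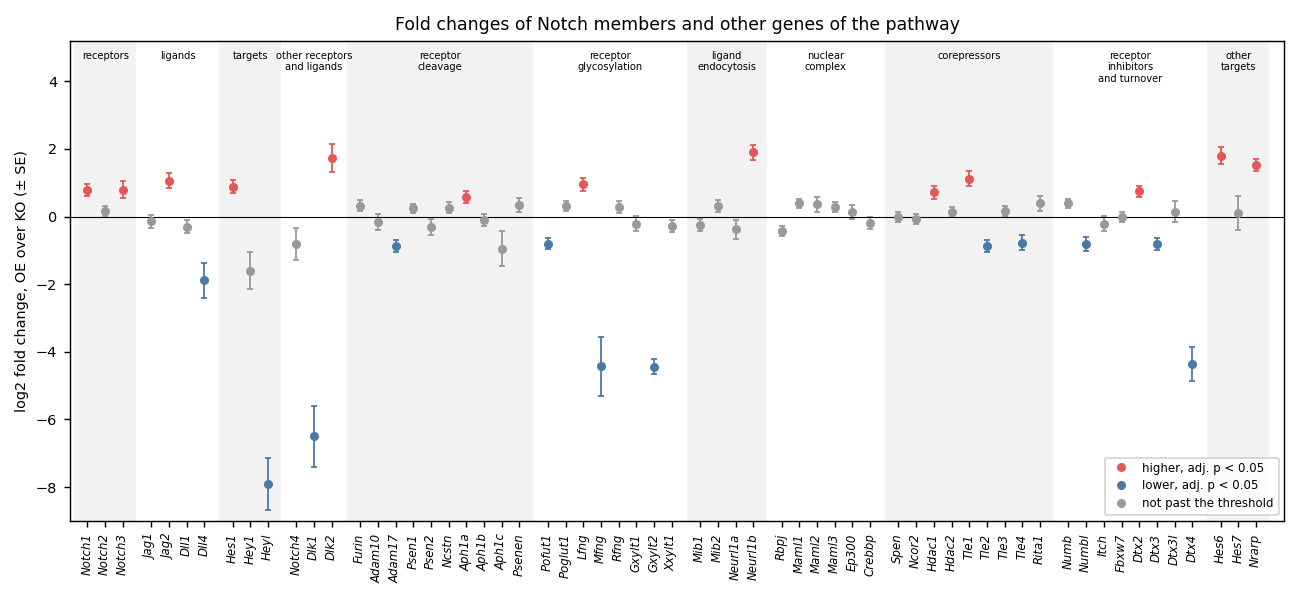
Log2 fold changes (OE over KO, ± standard error, TMM scaling) of the 10 members and the 51 tested pathway genes, grouped by role, with genes past an adjusted p of 0.05 in red (higher) or blue (lower). The largest falls are those of Heyl, Dlk1, Gxylt2, Mfng and Dtx4, and the points of the nuclear complex are all grey; the red points other than Dlk2, Neurl1b, Hes6 and Nrarp turn below 0 under the epithelial scaling.

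Of the 7 further genes listed beside the targets, 3 were tested, and Nrarp and Hes6 rose. The list holds Hes and Hey family genes and Nrarp, and not all of them are established targets of Notch. Nrarp, which encodes a feedback inhibitor of the Notch complex, had 21.4, 18.9 and 19.3 CPM with knockout and 47.2, 70.6 and 54.0 CPM with overexpression. Its log2 fold change was 1.53 (SE 0.18; adjusted p = 0.000324, edgeR). Hes6, a Hes-family gene that opposes Hes1, had 44.9, 39.4 and 36.5 CPM with knockout and 94.4, 195 and 131 CPM with overexpression (log2 fold change 1.80; edgeR adjusted p = 0.00088). Under the epithelial scaling these log2 fold changes were 0.27 (adjusted p = 0.480, range 7.22e-12 to 0.480) and 0.54 (adjusted p = 0.144, range 4.23e-10 to 0.144). Within a library the log2 ratio of Nrarp to Notch1 per kb was 0.05 ± 0.22 with knockout and 0.76 ± 0.23 with overexpression (SD, n = 3 each), without overlap. Of the other 5 genes on this list, Hes7 was tested and did not pass the threshold. Hes5 had 0 counts in all 6 libraries, and Hes2, Hes3 and Hey2 had at most 3, 2 and 19 counts in a library.

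Of 8 tested genes for glycosylation of the receptors, 1 rose and 3 fell, where 13.6% and 18.0% of all tested genes did, and the median log2 fold change was -0.24. Lfng, the Fringe glycosyltransferase that changes which ligands a receptor answers to, had 48.8, 57.5 and 44.1 CPM with knockout and 78.2, 117 and 96.2 CPM with overexpression (log2 fold change 0.95; edgeR adjusted p = 0.0048) that was -0.28 under the epithelial scaling. Gxylt2, a xylosyltransferase, fell from 68.0 ± 12.5 to 3.13 ± 0.57 CPM (SD, n = 3 each) (log2 fold change -4.44; edgeR adjusted p = 2.6e-06). Mfng, another Fringe gene, fell too (log2 fold change -4.43; edgeR adjusted p = 0.00531), from 24, 35 and 142 counts with knockout to 1, 1 and 7 with overexpression. Without replicate 3 its knockout mean dropped to 0.929 from 1.92 CPM, and its overexpression mean of 0.0804 CPM was 0.0321 CPM without replicate 3. Pofut1, the O-fucosyltransferase that acts before Fringe, was the third that fell (log2 fold change -0.80).

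Among the genes for cutting of the receptor, 1 of 10 tested rose and 1 fell, a called share of 20.0% that is below the 31.6% of all tested genes, and the median log2 fold change was 0.07. Adam17, a sheddase, fell from 73.5 ± 11.3 to 40.2 ± 6.65 CPM (SD, n = 3 each; log2 fold change -0.87, adjusted p = 0.00681, edgeR). Aph1a, a gamma-secretase subunit, rose from 109 ± 2.34 to 162 ± 39.9 CPM (SD, n = 3 each) (log2 fold change 0.58; edgeR adjusted p = 0.0436) that was -0.67 under the epithelial scaling. The Aph1a call was lost without any 1 of the knockout libraries (adjusted p = 0.104 to 0.112), over a range of 0.0197 to 0.112. Adam10, the sheddase required for ligand-driven Notch cleavage, had a log2 fold change of -0.15 and missed the threshold (edgeR adjusted p = 0.667).

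In the nuclear complex, 0 of 6 tested genes passed the threshold in the edgeR test. At an unadjusted p under 0.05 in that test there were 2 of the 6. At least 31.6% of all tested genes were under it too, since it includes every adjusted call. DESeq2 called 1 of the 6, where it called 6403 of the 18504 tested genes. Rbpj, the DNA-binding partner of the cut receptor, had 168, 171 and 197 CPM with knockout and 134, 121 and 147 CPM with overexpression, a log2 fold change of -0.41 (SE 0.15; adjusted p = 0.0632, edgeR). Every overexpression library was lower, and Rbpj passed the threshold with upper-quartile normalization (adjusted p = 0.0431) and with DESeq2 (0.0452), over a range of 8.59e-05 to 0.226. Among 9 corepressor genes, the Groucho-family members Tle1 and Tle2 went opposite ways, with log2 fold changes of 1.12 (adjusted p = 0.00426) and -0.87 (adjusted p = 0.00675, edgeR), where Tle1 had -0.05 under the epithelial scaling. Hdac1 rose (0.72, and -0.54 under the epithelial scaling) while Tle4 fell (-0.77). Hdac1 lost its call without any 1 knockout library (adjusted p = 0.0501, 0.0605 and 0.0557, range 0.00266 to 0.139), and Tle4 without knockout replicate 1 or 3 or overexpression replicate 2 or 3 (0.100, 0.0917, 0.0743 and 0.0991, range 0.000159 to 0.100).

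Of the genes for inhibition and turnover of the receptor, 1 of 8 tested rose and 3 fell, where 13.6% and 18.0% of all tested genes did, and the median log2 fold change was -0.11. Dtx4, a Deltex ubiquitin ligase, fell from 27.9 ± 9.60 to 1.38 ± 0.822 CPM (SD, n = 3 each; log2 fold change -4.36, adjusted p = 0.000243, edgeR). Dtx3 and Numbl, a Numb-family inhibitor, fell with log2 fold changes of -0.81 each, and Dtx2 rose with 0.74, which was -0.52 under the epithelial scaling. Without knockout replicate 2 the adjusted p of Dtx3 was 0.0511, over a range of 2.62e-06 to 0.0511. Neurl1b, one of the ubiquitin ligases that send ligands into endocytosis, rose from 15.6 ± 3.73 to 58.2 ± 13.7 CPM (SD, n = 3 each; log2 fold change 1.90, adjusted p = 0.000398, edgeR) and was the single called gene of the 4 on its list. Under the epithelial scaling the log2 fold change of Neurl1b was 0.69 (adjusted p = 0.0875, range 3.96e-12 to 0.0875). The non-canonical ligand genes Dlk1 and Dlk2 went opposite ways: Dlk1 had 164, 49 and 396 counts with knockout and 1, 4 and 1 with overexpression (log2 fold change -6.50, adjusted p = 0.000782, edgeR), and Dlk2 had 24, 13 and 19 against 43, 79 and 62 (log2 fold change 1.73, adjusted p = 0.0139, edgeR). Knockout replicate 3 carried much of Dlk1, with a mean of 5.75 CPM that was 3.21 CPM when it was left out, its overexpression mean of 0.0636 CPM was 0.0279 CPM without replicate 2, and the adjusted p of Dlk2 was 0.0561 without knockout replicate 2. Under the epithelial scaling the log2 fold change of Dlk2 was 0.48 and its call was lost (adjusted p = 0.455, range 0.00285 to 0.455). Notch4, the endothelial receptor, was tested and did not pass the threshold (log2 fold change -0.82, adjusted p = 0.226, edgeR), and Dll3 and Dner had too few counts to be tested.

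Genes whose pattern over the 6 libraries was most like that of a member were found by the root mean square difference of centred log2 CPM. For Notch1, the receptor with the smallest p-value, these were Tfap2a (0.056), Rufy1 (0.0648) and Phf13 (0.0653). Tfap2a encodes the AP-2 alpha transcription factor of epidermis. For Jag2 they were Anxa8 (0.0594), the basal and stress keratin gene Krt17 (0.0704) and Pir (0.109). For Heyl, the target with the smallest p-value, they were Aplp1 (0.176), the Wnt ligand gene Wnt5a (0.185) and Nkd1 (0.197). Each was at a greater distance than those of Notch1 and Jag2. Distances were not divided by the size of a gene's change, so they do not rank how shared a member's pattern is.

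**Figure D5:**
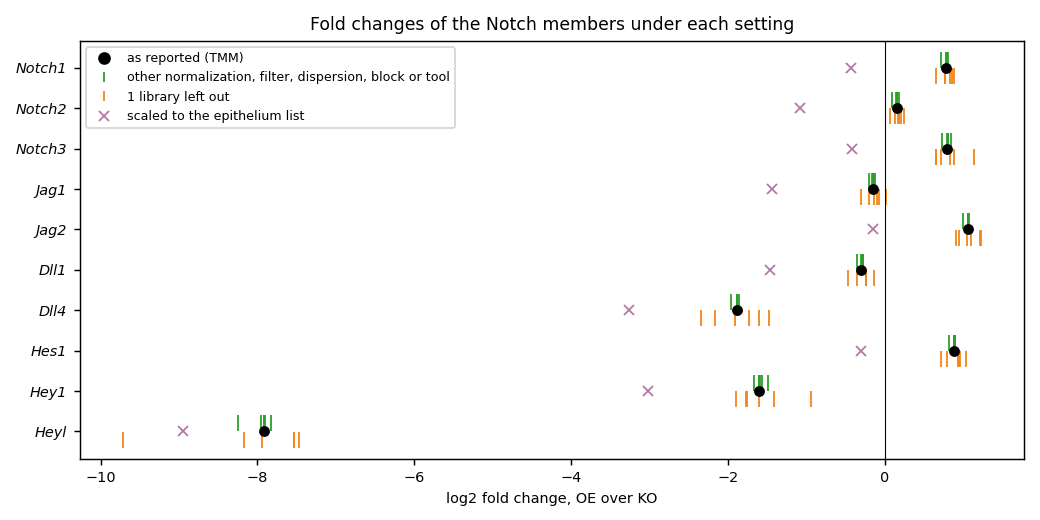
Log2 fold changes (OE over KO, horizontal axis) of the 10 members as reported (black), with another normalization, filter, dispersion, replicate block or tool (green), with 1 library left out (orange) and with libraries scaled to the epithelial markers (purple cross). Apart from the purple crosses, which are all below 0, Jag1 without overexpression replicate 1 is the point that changes side.

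Some counts could not be assigned with certainty, because exons of several members overlap those of other genes and the strand setting is not given in the sources used here. The overlapping genes of Notch1 (0610009E02Rik and Gm13568), Notch2 (Gm42820) and Notch3 (Gm17276) had at most 2.29%, 1.85% and 3.68% of the member's own counts in any library. For Dll4, Gm14207 on the other strand had 7, 2 and 15 counts with knockout and 3, 0 and 0 with overexpression, up to 25.0% of the counts of Dll4. Dll1 overlaps A930024N18Rik, which was not analysed here. Dlk2 overlaps Abcc10, with 564 to 808 counts in a library against at most 79 for Dlk2, and Adam17 overlaps Iah1, with 180 to 590 counts.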

How the data were processed

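Total RNA of 6 libraries, 3 per group, was measured by RNA-seq with a low-input kit, per the labels' protocols. The authors deposited raw whole-number counts per gene. The submitters' processing notes name mm10 and kallisto 0.44.0, without saying which step made the counts; neither the annotation, nor any strand setting, nor whether estimated counts were rounded is given in the sources used here. Of 55481 rows, 96 name no mouse gene (at most 2.23e-05% of counts) and were left out.

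Counts were tested with edgeR 4.0.16 in R 4.3.3 (quasi-likelihood, TMM, filterByExpr with a minimum count of 10 and total of 15), with Benjamini-Hochberg adjustment over all 18504 tested genes and a threshold of 0.05. Fold changes are overexpression over knockout, and standard errors were derived from the F statistic. Exon lengths are from GENCODE M21 (GRCm38). Library totals of 31247976 to 38543221 put 3 counts, the upper limit that a count of 0 allows, at 0.0758 to 0.101 CPM. In data simulated for this comparison over 18504 genes, 25 of 112 genes changed 2-fold and 61 of 88 changed 4-fold were recovered, with 6 false among 92 calls. The simulation changed 200 genes, where 5848 were called in the data. The adjusted threshold was therefore stricter there, and the recovery may understate that of this comparison. The alternatives were other normalizations, filter, dispersion, a replicate block, DESeq2 1.42.0 and each library left out. All members were named, and of each pathway list the 2 called genes with the smallest p in each direction, or the 1 with the smallest p; Pofut1, Numbl, Adam10, Notch4 and the untested genes were named after their values were seen. The members and lists were chosen with earlier results of these data known.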

Additional observations from a re-analysis of the deposited data

Results flagged for a closer look

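A row of the table that names a reporter, mCherry, and no mouse gene had 8 counts in knockout replicate 3, which is above the 3 counts that a count of 0 allows. It had 1 count in knockout replicate 2 and 0 in the other 4 libraries. Outlying libraries were not searched for in groups of 3.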

How the results depend on the processing

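Of the 28 named members and pathway genes, the calls and directions of all 28 were kept with RLE normalization, no filter, robust dispersion and the replicate block, 27 with DESeq2, 26 with upper-quartile normalization and 10 with libraries scaled to the epithelial markers. That scaling gave 13212 called genes in place of 5848 (311 higher and 12901 lower, in place of 2519 and 3329), 0 higher and 6 lower members in place of 4 and 2, and 40 called pathway genes in place of 19 (0 higher and 40 lower, in place of 9 and 10). Log2 fold changes that reversed under it were Notch1 -0.43, Notch2 -1.08, Notch3 -0.42, Jag2 -0.15, Hes1 -0.30, Aph1a -0.67, Lfng -0.28, Tle1 -0.049, Hdac1 -0.54 and Dtx2 -0.52. The scaling shifted fold changes downward because the epithelial markers measured higher with overexpression. The relative library sizes from these markers were 0.51 to 0.76 with knockout and 1.26 to 2.00 with overexpression. With 1 library left out, 1446 to 2599 genes were higher (1446 without knockout replicate 2 and 1610 without knockout replicate 3), members called lower numbered 1 to 3, and Jag1 reversed to 0.013 without overexpression replicate 1; the cause was not tested.

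Same-numbered libraries had correlations of their deviations of 0.05, 0.02 and -0.04, and the other pairs had -0.07 to 0.05. The check thus showed no pairing by number, but with 3 libraries per group it cannot exclude one. With the replicate block 5593 genes were called, 6 of them members and 19 pathway genes, and no call of the 28 changed. At this depth Heyl with overexpression lies near the detection limit, and 7 pathway genes had too few counts to be tested. Members that did not pass are not shown to be equal. The simulated 2-fold changes were mostly missed, but fewer genes were changed there than were called here. That recovery therefore does not give the power of this comparison.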
